A study of Mus musculus with 3 samples.

Results

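miR-221 and miR-222 are paired microRNAs of the X chromosome that are known to repress Kit, the receptor tyrosine kinase that germ cells use to respond to Kit ligand made by the surrounding somatic cells. Kit signaling is needed for the survival of oocytes and for the formation and activation of primordial follicles. Each hairpin is cut into a 5p and a 3p arm, and the arm that is loaded into an Argonaute protein directs repression through its seed, bases 2 to 8. The members were taken by name from the table of mature miRNAs, as mmu-miR-221-3p, mmu-miR-221-5p, mmu-miR-222-3p and mmu-miR-222-5p. All 4 had a row, among 627 mature miRNAs. All 4 also passed the minimum used here, at least 10 normalized counts on average over the libraries, as did 587 miRNAs in all.

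The study cultured whole ovaries of newborn CD1 mice for 72 h in medium with 0, 10 or 100 μM DEHP, a phthalate plasticizer, during the time when germ cell cysts break down and primordial follicles assemble. The 0 μM group received the vehicle, DMSO, in which DEHP was dissolved for the other groups, and the labels give the ovaries as postnatal day 3. Small RNA was sequenced in 1 library per concentration, from a pool of 120 ovaries for each group. Over all rows of the deposited table, the libraries held 6916300, 6950297 and 6850706 counts at 0, 10 and 100 μM. With 1 row kept for each miRNA, as used here, they held 5253367, 5064602 and 5952274, so the 100 μM library was the smallest by the first total and the largest by the second. No replicate exists, so no p-value is given. The 95% intervals cover counting error only, and no molecular identifiers tell copies of a molecule apart. In a whole ovary, fewer cells of a type and less RNA per cell cannot be told apart. miR-202-5p, a miRNA of gonadal somatic cells, had 41367, 53172 and 9799 counts in the 3 libraries, so this marker of the labelled tissue was present in each. The other arm, miR-202-3p, had 1614, 1261 and 1098 counts. With the size factors the log2 ratio between 100 and 0 μM was -0.74 for miR-202-5p and 0.78 for miR-202-3p. In CPM, counts scaled to the library total of the kept rows, both arms were lower at 100 than at 0 μM. miR-202-5p went from 7874 to 1646, a log2 ratio of -2.26, and miR-202-3p from 307 to 184.

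The sequences that tie the pair together are those of the 3p arms, shown with the seed in capitals, as RefSeq gives them on GRCm38.p6. miR-221-5p, which carries another seed, is shown for the arm comparison.
miR-221-3p: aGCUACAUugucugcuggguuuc
miR-222-3p: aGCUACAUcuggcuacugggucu
miR-221-5p: aCCUGGCAuacaauguagauuucugu
The 3p arms are identical over their first 8 bases, and 11 bases are identical at the same position over their full length of 23 bases. The seed GCUACAU is found in 3 mature entries of the RefSeq table, the third being miR-1928, which has no value here. The seed of miR-221-5p is found in 1 entry. miR-222-5p has no entry. Of the 627 miRNAs, 529 were matched to a mature entry by name.

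The hairpins are neighbours. Mir221 spans chrX:19146294-19146388 and Mir222 spans chrX:19146893-19146971 on GRCm38, both on the minus strand, with 504 bases between them. The GENCODE M21 annotation has 0 other genes overlapping this span, so the pair is intergenic there, and the nearest gene upstream is the non-coding transcript Gm14636, 10009 bases away. The submitters' notes name mm10, the same assembly as GRCm38.

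Kit was searched for the letters that pair with the shared seed, ATGTAGC, on the transcript strand. The 3′ UTR of Kit-201, 2177 bases long in GENCODE M21, holds 2 matches, each followed by A. They are shown with 8 bases on either side because they are where both 3p arms could pair, with the match in capitals.
Kit match at chr5:75654992-75654998: ggagatatATGTAGCaagactag
Kit match at chr5:75656523-75656529: atattgaaATGTAGCaataatgt
Kit lies on the plus strand, and the matches start at bases 447 and 1978 of the UTR. Of 4792 genes whose longest 3′ UTR is at least as long, 15.8% hold the letters in its first 2177 bases, and 1.42% hold them at least 2 times. A match is a description of the sequence. Kit mRNA and protein were not analysed here.

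In ovaries without DEHP, the 3p arms were the abundant products of both hairpins. At 0 μM, miR-221-3p had 2574 counts, miR-222-3p had 911, miR-221-5p had 264 and miR-222-5p had 52. Divided by the size factors, these are normalized counts of 1868 (95% interval 1796 to 1941), 661 (619 to 705), 192 (169 to 216) and 37.7 (28.2 to 49.5). The intervals of neighbours in this order did not overlap. Among the 627 miRNAs miR-221-3p was at rank 140 and miR-222-3p at rank 219, so neither was among the dominant miRNAs of the newborn ovary. These levels compare reads of different sequences, whose capture in the library can differ.

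At 10 μM DEHP both 3p arms and miR-221-5p were higher than at 0 μM, by less than 2 on the log2 scale, and the order of the 4 arms was as at 0 μM. miR-221-3p had 3687 counts, a normalized count of 2735 (2648 to 2825), and was 1.46-fold higher, with a log2 ratio of 0.55 (0.48 to 0.62). miR-222-3p had 1167 counts, a normalized count of 866, and a log2 ratio of 0.39 (0.26 to 0.52). miR-221-5p had 335 counts and a log2 ratio of 0.37 (0.14 to 0.61). These 3 intervals exclude 0 as far as counting error goes. miR-222-5p had 51 counts against 52, which is a log2 ratio of 0.00 (-0.58 to 0.59). None of the 4 was beyond a log2 ratio of 2, and 4 of the 587 miRNAs (0.681%) were. The study states the same fold, but used it with a false discovery rate limit and on its own fold changes, which differ from the ratios here. A ratio beyond 2 here is therefore not a call by the rule of the study. For miR-221-3p, 91.3% of the 587 miRNAs had a lower log2 ratio at 10 μM.

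At 100 μM DEHP the arms of miR-221 changed in opposite directions and their order was exchanged. miR-221-3p, the arm with the Kit-pairing seed, had 361 counts, a normalized count of 661 (595 to 733), and was 2.82-fold lower than at 0 μM, with a log2 ratio of -1.50 (-1.66 to -1.34). miR-221-5p had 615 counts, a normalized count of 1127 (1039 to 1219), and was 5.88-fold higher, with a log2 ratio of 2.55 (2.35 to 2.77). Both intervals lie away from 0, on opposite sides. With the size factors miR-221-5p was the 1 member of 4 beyond 2, where 116 of the 587 miRNAs (19.8%) were beyond 2 in either direction, 61 (10.4%) above it and 55 (9.37%) below -2. Of the 587 miRNAs, 95.1% had a lower log2 ratio than miR-221-5p and 16.4% a lower one than miR-221-3p.

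The log2 ratios of the miR-222 arms between 100 and 0 μM lay closer together than those of the miR-221 arms. miR-222-3p had 465 counts at 100 μM, a normalized count of 852 (776 to 933). Its log2 ratio to 0 μM was 0.37 (0.20 to 0.53) with the size factors, but -1.15 when libraries were scaled to total counts and -0.40 when the 10 most abundant miRNAs were left out of the library sizes, so its direction depends on the scaling. miR-222-5p, the least abundant arm, had 46 counts and a log2 ratio of 1.15 (0.55 to 1.76), which became -0.35 with total counts. Leaving the 10 most abundant miRNAs out put it at 0.39, and there the arms of miR-222 also lay on opposite sides of 0. For miR-221 the directions held in each scaling that was run. With total counts miR-221-3p was at -3.01 and miR-221-5p at 1.04, and without the 10 most abundant they were at -2.26 and 1.79. In both of these scalings miR-221-3p, and not miR-221-5p, was the member beyond 2, beside these shares of all miRNAs. With total counts 4 of 593 that passed the minimum were above 2 (0.675%) and 213 below -2 (35.9%), and without the 10 most abundant 23 of 590 were above (3.90%) and 130 below (22.0%). Scaling to total counts moves the log2 ratios between 100 and 0 μM by about -1.52. The 10 most abundant miRNAs held 70.5% of the counts at 100 μM and 45.4% at 0 μM.

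**Figure D1:**
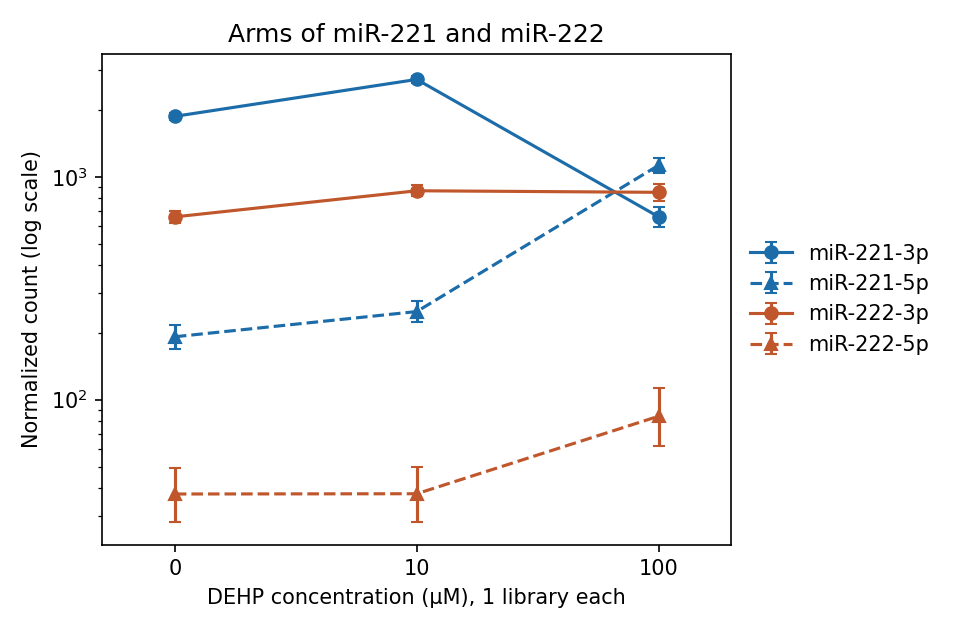
Normalized count on a log axis of the 4 arms at 0, 10 and 100 μM DEHP, with 1 library per concentration and bars for the exact 95% Poisson interval of each count. miR-221-3p goes from 1868 to 661 and miR-221-5p from 192 to 1127 between 0 and 100 μM, so their order is exchanged, with size-factor scaling.

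From 10 to 100 μM the values had the same pattern for miR-221, and this comparison shares the 100 μM library with the one before. miR-221-3p was 4.14-fold lower, with a log2 ratio of -2.05 (-2.21 to -1.89), and miR-221-5p was 4.53-fold higher, with a log2 ratio of 2.18 (1.99 to 2.38). With the size factors these 2 of the 4 members were just beyond 2, and both counting intervals reach inside it, where 123 of the 587 miRNAs (21.0%) were beyond 2, 72 of them above it (12.3%) and 51 below -2 (8.69%). miR-222-3p had a log2 ratio of -0.02 (-0.18 to 0.13) and miR-222-5p one of 1.14 (0.55 to 1.76). With total counts the miR-222 arms were at -1.56 and -0.38, below 0. miR-221-5p was then at 0.64, and at 1.37 without the 10 most abundant, no longer beyond 2, whereas miR-221-3p was at -3.58 and -2.85. Over all miRNAs total counts put 8 above 2 (1.35%) and 226 below -2 (38.1%), and without the 10 most abundant 24 were above (4.07%) and 119 below (20.2%).

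The ratio of the arms within a library does not depend on the scaling, and it gives the change of miR-221 most directly. The 3p arm of miR-221 had 9.75 times the counts of its 5p arm at 0 μM and 11.0 times at 10 μM, but 0.587 times at 100 μM. Of the counts of the hairpin, the 5p arm thus held 9.30% without DEHP (Clopper-Pearson 95% interval 8.26% to 10.4%) and 8.33% with 10 μM (7.49% to 9.23%). With 100 μM it held 63.0% (59.9% to 66.0%). The larger arm was 3p in the first 2 libraries and 5p at 100 μM. The log2 3p to 5p ratio, with 0.5 added to each count, changed by -4.05 between 100 and 0 μM (-4.32 to -3.79), and by 0.18 between 10 and 0 μM (-0.07 to 0.42).

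For miR-222 the 3p arm stayed the larger arm throughout. It had 17.5 times the counts of the 5p arm at 0 μM, 22.9 times at 10 μM and 10.1 times at 100 μM, and the 5p share was 5.40%, 4.19% and 9.0%. The change in the log2 arm ratio was -0.79 between 100 and 0 μM (-1.42 to -0.16), which rests on 46 and 52 counts of the 5p arm, and 0.38 between 10 and 0 μM (-0.22 to 0.99).

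Arm ratios moved in many hairpins at 100 μM, and miR-221 was near the low end of them. Of 174 hairpins with both arms above the minimum, 60 (34.5%) had an arm ratio that changed by more than 2 between 100 and 0 μM, 26 of them (14.9%) toward the 5p arm. At 10 μM, 2 of the 174 (1.15%) did. Not all of the 174 are distinct measurements, since miR-486a and miR-486b, for example, have the same arm ratios in each library. The change of miR-221 was the eighth lowest of the 174, that of miR-222 was at rank 53 from the lowest, and the median over all was 0.44, with quartiles of -1.09 and 1.72. The larger arm was another one at 100 than at 0 μM in 24 hairpins (13.8%), of which 12 went from 3p to 5p. Among these 12, miR-221 had the highest log2 3p to 5p ratio at 0 μM, 3.28, followed by miR-363 with 2.64 and miR-743a with 2.19. miR-363-5p, with normalized counts of 7.98, 5.94 and 42.1, passed the minimum only through the 100 μM library. The place of miR-363 among the 12 thus rests on that library. The numbers of hairpins describe the libraries, since preparation and concentration cannot be told apart with 1 library each.

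**Figure D2:**
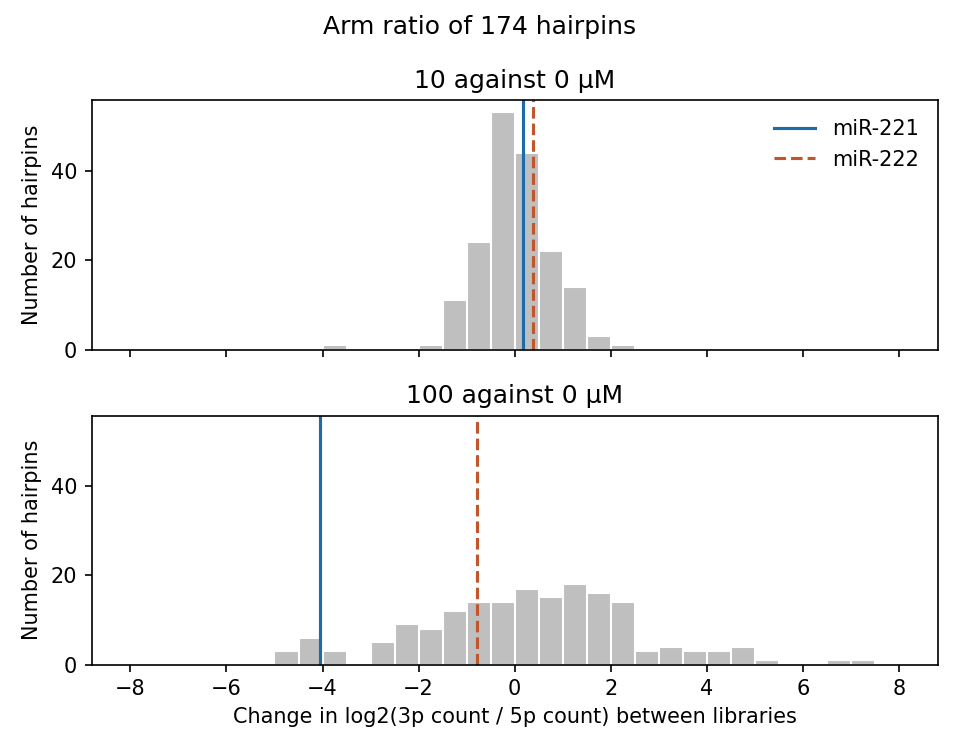
Number of hairpins by the change in the log2 ratio of 3p to 5p counts, for 10 against 0 μM and 100 against 0 μM DEHP, over 174 hairpins, with lines at miR-221 and miR-222. At 100 μM miR-221 lies at -4.05 and miR-222 at -0.79, and at 10 μM they lie at 0.18 and 0.38.

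The order of the 3p arms, which carry the same seed from neighbouring hairpins, was also exchanged at 100 μM. miR-221-3p had 2.83 times the counts of miR-222-3p at 0 μM, 3.16 times at 10 μM and 0.776 times at 100 μM. The log2 ratio of this pair changed by -1.86 between 100 and 0 μM (-2.09 to -1.63), and by 0.16 between 10 and 0 μM (0.01 to 0.31). For the 5p arms the ratio of miR-221 to miR-222 was 5.08, 6.57 and 13.4, and its log2 value changed by 1.39 at 100 μM (0.76 to 2.04). The order of the 4 arms at 100 μM was therefore miR-221-5p, miR-222-3p, miR-221-3p and miR-222-5p, with intervals of neighbours that did not overlap.

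Seen as parts of 1 sum, miR-221-3p held 67.7% of the counts of the 4 arms without DEHP (Wilson 95% interval 66.2% to 69.2%). It held 70.4% with 10 μM and 24.3% with 100 μM (22.2% to 26.5%). miR-221-5p held 6.95%, 6.39% and 41.4%. miR-222-3p held 24.0%, 22.3% and 31.3%, and miR-222-5p held 1.37%, 0.973% and 3.09%. The summed normalized count of the 4 arms was 2758, 3887 and 2724 in the 0, 10 and 100 μM libraries. With the size factors the sum at 100 μM thus lay within counting error of that at 0 μM (log2 ratio -0.02, -0.11 to 0.07), while the make-up was another one. In CPM the sums were 724, 1035 and 249.8. The arms with the shared seed, miR-221-3p and miR-222-3p, summed to 2529, 3601 and 1513 normalized counts, or 663, 958 and 139 in CPM. Their log2 ratio at 100 μM was -0.74 (-0.85 to -0.63), and at 10 μM it was 0.51 (0.45 to 0.57).

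Other miRNAs known to repress Kit lay on both sides of 0 at 100 μM with the size factors. Of 7 on the list, 6 had values, and miR-193a-3p had none. At 10 μM 0 of the 6 were beyond 2, beside 0.681% of the 587. At 100 μM 0 were above 2 and 2 below -2, beside 10.4% and 9.37%. The median log2 ratio of the 6 was -1.43 beside -0.01 over the 587. The 2 were members of the p53-induced miR-34 family, miR-34a-5p (832, 663 and 63 counts, log2 ratio at 100 μM -2.38) and miR-34b-5p (2719, 1098 and 127 counts, -3.08). miR-34c-5p, with 14983, 6379 and 2404 counts, was at -1.30. miR-494-3p, from the imprinted Dlk1-Dio3 locus, had 1371, 1643 and 185 counts and a log2 ratio of -1.55, close to that of miR-221-3p. miR-193b-3p was at 0.86, and miR-218-5p, the most abundant of the list with 24976, 15820 and 11503 counts, was at 0.22. With total counts each of the 6 was below 0, beside 498 of the 593 that passed the minimum. Of the 6, 4 were below -2, beside 35.9% of all, and the median of the list was -2.94 beside -1.53.

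Other miRNAs of the X chromosome lay in both directions at 100 μM with the size factors. Apart from the members, 85 measured miRNAs were placed there by a mature entry of the same name, and 81 passed the minimum. Of the 627 miRNAs, 529 had such an entry on any chromosome, so the rest could not be placed. At 100 μM 8 of the 81 were above 2 and 9 below -2, beside 10.4% and 9.37% of the 587, and their median log2 ratio was -0.18 with an interquartile range from -1.39 to 0.45, or a median of -1.69 with total counts, where 82 passed the minimum, 0 of them above 2 and 36 below -2, beside 0.675% and 35.9% of all. At 10 μM their median was 0.05 and 0 of the 81 were beyond 2, beside 0.681% of the 587.

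The patterns most like the 3p arms were sought among the 373 other miRNAs that averaged 100 or more normalized counts, by the Euclidean distance in the 2 log2 ratios to 0 μM, over 3 libraries. Nearest to miR-221-3p were miR-328-3p (3042, 4393 and 406 counts, distance 0.073), miR-532-3p (243, 323 and 33 counts, 0.12) and miR-543-3p (402, 590 and 62 counts, 0.14). Nearest to miR-222-3p were miR-15b-5p (1159, 1481 and 539 counts, 0.13), miR-320-3p (9413, 11256 and 5116 counts, 0.13) and miR-874-3p (150, 177 and 73 counts, 0.14). Neither 3p arm was among the nearest 3 of the other.

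miR-221 and miR-222 are also known from endothelial, blood and smooth muscle cells, so the miRNA markers of these cells are given beside them. Both endothelial markers on the list were measured, miR-126a-3p and miR-126a-5p. Their summed normalized count was 46170, 52252 and 9855 from the lowest to the highest concentration, or 12112, 13907 and 904 in CPM, and miR-126a-3p was the more abundant. The log2 ratios at 100 μM were -2.12 for miR-126a-3p and -3.12 for miR-126a-5p, both below -2, beside 9.37% of the 587. With total counts the median of the pair was -4.14 in place of -2.62. Of 8 blood cell markers 7 were measured, and their sum was 1167, 1196 and 965 normalized counts, or 306, 318 and 88.5 in CPM, with miR-486a-5p the most abundant and miR-144-3p at 16, 3 and 2 counts. With the size factors, none of the 6 that passed the minimum was beyond 2 at 100 μM, beside 19.8% of the 587. Of the 6, 5 were below 0, beside 296 of the 587, the lowest being miR-142a-3p (-1.98) and miR-142a-5p (-1.65). With total counts all 6 were below 0, beside 498 of all 593, and these 2 were below -2, beside 35.9% of all. The erythroid miR-451a had 165, 177 and 54 counts, and the myeloid miR-223-3p had 43, 43 and 17. All 4 markers of smooth muscle and stroma were measured, and their summed normalized count was 215942, 172184 and 794815, or 56649, 45827 and 72886 in CPM, most of it miR-143-3p. With the size factors miR-143-3p was at 1.92 at 100 μM, and the other 3 markers were below 0, miR-143-5p at -3.06, miR-145a-5p at -1.20 and miR-145a-3p at -0.15. With total counts miR-143-3p was at 0.40, and 2 of the 4, miR-143-5p and miR-145a-5p, were below -2. None of the measured markers had 0 counts at 100 μM. The part of these cells in the levels of miR-221 and miR-222 was not tested.

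The miR-290 to miR-295 cluster was taken as the marker of germ cells, which carry the Kit receptor. Whether it marks them in these cultured ovaries was not tested. Of 12 listed arms 9 were measured. Their summed normalized count was 3680, 3129 and 10553, with miR-292a-5p the most abundant. With the size factors, 5 of the 9 were higher at 100 than at 0 μM and 4 lower. Of the 587 miRNAs, 291 were higher and 296 lower. The log2 ratios of the 9 arms went from -1.44 for miR-293-5p to 2.93 for miR-292a-5p. With miR-294-3p (2.70), 2 of the 9 were above 2, beside 10.4% of the 587. With total counts 2 of the 9, again these 2 arms, were higher and 7 lower, beside 95 and 498 of all 593. Of the 9, 0 were then above 2 and 2 below -2, beside 0.675% and 35.9% of all. In CPM the sum was 965, 833 and 968. The miR-291b arms, numbered in the same range, were not on the list and were below the minimum. miR-291b-3p had 13, 11 and 1 counts and miR-291b-5p had 11, 12 and 1. With the size factors their log2 ratios between 100 and 0 μM were -2.09 and -1.86. The part of germ cells in the levels of miR-221 and miR-222 was not tested either.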

How the data were processed

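The values deposited by the authors are raw counts, 1 row for each mature miRNA and precursor, made with miRDeep2 after linker and quality trimming and bowtie2 alignment to mouse. The submitters' processing notes name mm10 and DESeq2, and versions are not given in the sources used here. The table has 961 rows for 627 miRNAs. Of the 79 miRNAs with several rows the most abundant row was kept, and each member had 1 row. The lowest counts were 10, 2 and 0 at 0, 10 and 100 μM. miRNAs with fewer than 10 counts at 0 μM are thus not seen, including any that were higher only with DEHP. The shares of all miRNAs above 2 and below -2 are taken without them.

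Counts were divided by DESeq2 1.42.0 size factors (1.38, 1.35 and 0.546) in R 4.3.3, and log2 ratios were taken with 0.5 added. Intervals are exact Poisson for levels, exact Clopper-Pearson for ratios of 2 counts, the exact conditional interval of the odds ratio for changes of ratios, and Wilson for the shares of the 4 arms (SciPy 1.17.1, Python 3.11.15). The scripts were tested on simulated data. TMM and upper-quartile factors came from edgeR 4.0.16. Hairpin positions and sequences came from RefSeq (GRCm38.p6), and gene models and Kit transcripts from GENCODE M21. The members and lists were chosen with earlier results of these data known. Named are the members, the list members, the miR-291b arms, miRNAs with a member's seed, and the 3 nearest patterns to each 3p arm. Further hairpins named by arm ratio were chosen after their values were seen.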

Additional observations from a re-analysis of the deposited data

How the results depend on the processing

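No paired analysis was possible because each concentration has 1 library, which also leaves no replicate to omit. The counting error of miR-222-5p, with 46 to 52 counts, limits what can be said of its arm ratio. Under TMM and upper-quartile scaling, 1 added count and summed rows, each log2 ratio of the members and each arm or pair ratio that was run stayed within its counting interval. Scaling to total counts gave log2 ratios between 100 and 0 μM of -3.01 for miR-221-3p, 1.04 for miR-221-5p, -1.15 for miR-222-3p and -0.35 for miR-222-5p, and between 100 and 10 μM of -3.58, 0.64, -1.56 and -0.38. With the 10 most abundant miRNAs kept out of the library sizes they were -2.26, 1.79, -0.40 and 0.39 between 100 and 0 μM, and -2.85, 1.37, -0.83 and 0.35 between 100 and 10 μM. Both settings shift the ratios, by about -1.52 and -0.76 between 100 and 0 μM. The sign thus changed for miR-222-3p in both, and for miR-222-5p with total counts.

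Over all miRNAs, total counts put 4 above 2 and 213 below -2 between 100 and 0 μM, and 8 and 226 between 100 and 10 μM. Without the 10 most abundant these were 23 and 130, and 24 and 119. At a mean of at least 100, 50 were above 2 and 25 below -2 between 100 and 0 μM, and 57 and 24 between 100 and 10 μM. Between 10 and 0 μM it left 1 below -2, where no minimum gave 9. At a threshold of 1, 157 were above and 151 below between 100 and 0 μM, 173 and 145 between 100 and 10 μM, and 9 and 30 between 10 and 0 μM. The cause of the unequal loss of higher and lower miRNAs at a mean of at least 100 was not tested.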

Other observations

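The other hairpins whose larger arm was 3p at 0 μM and 5p at 100 μM included miR-363, also on the X chromosome. There miR-363-3p had 71, 52 and 11 counts and miR-363-5p had 11, 8 and 23. With normalized counts of 7.98 and 5.94 at 0 and 10 μM, miR-363-5p passed the minimum only through the 100 μM library (42.1). The log2 3p to 5p ratio of miR-423 was 1.04, 1.24 and -1.47 at 0, 10 and 100 μM, that of miR-29c was 0.50, 0.00 and -1.99, and that of miR-743a was 2.19, 2.24 and -0.48. The hairpins next to miR-221 in the change between 100 and 0 μM were miR-10a (-4.06) and miR-878 (-4.03). In these the 5p arm was the larger already at 0 μM, with log2 ratios of -7.97 and -3.04. These hairpins were chosen after their values were seen, and no cause was tested.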
